A study of Mus musculus with 31 samples.

Results

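The genes that write, maintain and remove DNA methylation were followed in mouse embryonic stem cells (mESCs) of 4 genotypes. They were chosen by name, without use of their values, as the maintenance pair Dnmt1 and Uhrf1, the de novo genes Dnmt3a, Dnmt3b and Dnmt3l, the oxidising enzymes Tet1, Tet2 and Tet3, and the glycosylase gene Tdg. All 9 were found among the 15034 genes of the RNA-seq table, and all 9 passed the minimum of a mean of 1 TPM (reads scaled for transcript length and to the same library total) that left 11287 genes for testing. What was measured is mRNA. Neither protein nor DNA methylation was measured in these libraries.

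All lines descend from the mESC line ES-E14TG2a, and the cells for expression profiling were kept in 2i + Lif, a serum-poor medium with inhibitors of Mek and Gsk3. The RNA-seq set holds WT (n = 2), CLIPΔ (n = 2), Ago2 KO (n = 4) and Ago2 KO/CLIPΔ (n = 4) libraries. CLIPΔ cells carry a genome-edited deletion, in the 3′UTR of Ago2, of the stretch bound by the RNA-binding protein Trim71. Ago2 KO cells lack Ago2, the Argonaute protein that loads miRNAs, and Ago2 KO/CLIPΔ cells carry both edits. The small-RNA-seq set holds 4 libraries of each of these genotypes, and a CLIP-seq experiment mapped Trim71 on RNA in mESCs with a FLAG-tagged endogenous Trim71. The study uses the name WT for these FLAG-Trim71 cells and lists the CLIPΔ, Ago2 KO and double-edited lines as FLAG-Trim71 cells too, so the tag is shared by all 4 genotypes as the study names them. The labels call the libraries biological replicates but do not say from which edited clone each came, so clone and genotype cannot be told apart.

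In mammals, DNA methyltransferases place methyl groups on the cytosine of CpG dinucleotides. Dnmt1 copies the pattern after replication, guided to hemimethylated sites by Uhrf1, whereas Dnmt3a and Dnmt3b methylate new sites and are stimulated by Dnmt3l, a relative without catalytic activity of its own. Tet enzymes oxidise methylcytosine, and Tdg excises the most oxidised forms so that base excision repair can restore an unmodified cytosine. mESCs in 2i + Lif are known for low DNA methylation, and Tet1 and Tet2 are the Tet enzymes that such cells mainly use.

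The level of Ago2 mRNA matched the Ago2 KO labels in every library, but a level summed over the whole gene does not check the deletion in its 3′UTR. Ago2 mRNA was at 28.2 and 21.6 TPM in WT and at 27.3 and 20.3 TPM in CLIPΔ, and it lay between 1.67 and 2.29 TPM in Ago2 KO and between 1.51 and 2.88 TPM in Ago2 KO/CLIPΔ. The pluripotency genes were high throughout, with Pou5f1 between 2313 and 3262 TPM and Nanog between 581 and 1204 TPM over the 12 libraries. Markers of fibroblast feeders were low, with Col1a1 at no more than 1.23 TPM and Thy1 at no more than 2.09 TPM. The endoderm genes Gata4, Gata6, Sox17 and Foxa2 reached at most 3.02 TPM. Of the trophoblast genes, Elf5 stayed under 0.065 TPM, Cdx2 ranged from 3.79 to 14.9 TPM and Krt8 from 57.1 to 122 TPM. The 2 WT libraries correlated at r = 0.977 across genes and the 2 CLIPΔ libraries at r = 0.980, whereas replicates of the Ago2 KO groups correlated at 0.990 to 0.999.

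Uhrf1 was the most abundant of the 9 mRNAs in all 4 genotypes, with a mean of 362 TPM in WT. TPM is scaled for the length of 1 transcript per gene, so the levels of different genes within a genotype can be set side by side roughly. In WT, Uhrf1 was followed by Dnmt3l at 179 ± 32.4 TPM (SD, n = 2), Dnmt1 at 125 ± 20.8 TPM, Tet1 at 65.5 ± 13.4 TPM, Dnmt3b at 47.1 ± 12.6 TPM and Tet2 at 46.2 ± 5.43 TPM. Tdg followed at 13.9 ± 1.09 TPM, Dnmt3a at 5.23 ± 1.78 TPM and Tet3 at 3.79 ± 0.39 TPM. Neighbours whose WT libraries overlapped were Tet1 and Dnmt3b, Dnmt3b and Tet2, and Dnmt3a and Tet3. In CLIPΔ, Dnmt1 and Dnmt3l changed places at a mean of 112 TPM each, with overlapping libraries. In Ago2 KO, Dnmt3b at 54.7 TPM stood above Tet2 at 22.9 and Tet1 at 21.9 TPM, and no library of Dnmt3b overlapped with one of either Tet gene. Ago2 KO/CLIPΔ had the same separation, with Dnmt3b at 47.9, Tet1 at 22.2 and Tet2 at 19.1 TPM. Long transcripts were lower without Ago2 across all genes, as given below. The transcript of Dnmt3b has 4.3 kb, against 14.4 kb for Tet1 and 9.2 kb for Tet2, so this change of order is not separated from length.

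**Figure D1:**
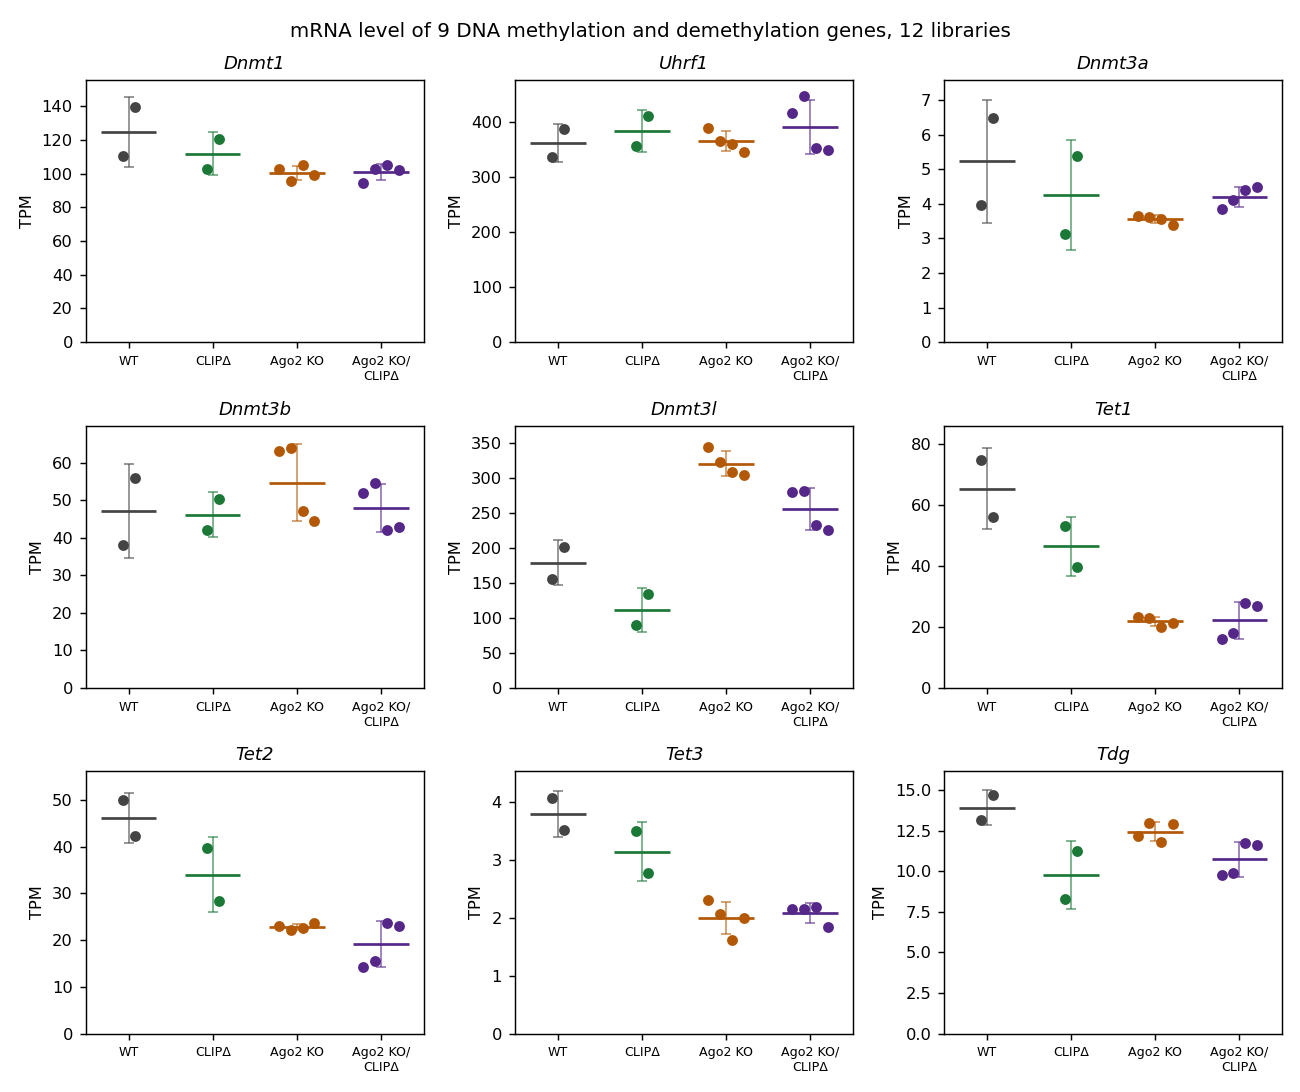
Level in TPM (vertical axis, from 0) of each of the 9 genes in the 4 genotypes (horizontal axis). Each point is 1 library, in the order of the replicate numbers from left to right, the long bar is the mean and the thin bar 1 SD. Dnmt3l is highest in the Ago2 KO libraries (304 to 344 TPM) and Tet1 is highest in WT (56.0 and 74.97 TPM), while Uhrf1 lies between 337 and 448 TPM in all 12 libraries.

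The first question was what loss of Ago2 goes with, and it can be asked in 2 backgrounds with no library in common: Ago2 KO against WT, and Ago2 KO/CLIPΔ against CLIPΔ. Both take their spread from 1 fit over all 12 libraries, so agreement between them is not independent. Libraries of different groups also deviated together, with r = 0.71 between WT replicate 1 and CLIPΔ replicate 1. Dnmt3l was higher without Ago2 in both backgrounds, and Tet1 was lower in both under every scaling tried. Tet2 and Tet3 were also called lower in both, but these calls depended on the treatment of transcript length. In Ago2 KO against WT, 5 of the 9 genes passed an adjusted p of 0.05 (limma with Benjamini-Hochberg adjustment over all genes tested), 1 higher and 4 lower. Of all genes tested, 56.4% passed, 14% higher and 42.4% lower, so that a count of 5 of 9 is near the background. In Ago2 KO/CLIPΔ against CLIPΔ, 4 of the 9 passed, 1 higher and 3 lower, where 54.9% of all genes did, 12.8% higher and 42.1% lower.

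That background is wide, and its direction depends on scaling. The median gene differed by -0.26 (log2) in Ago2 KO against WT and by -0.25 in Ago2 KO/CLIPΔ against CLIPΔ. As deposited, 1579 genes were called higher and 4785 lower in Ago2 KO against WT. With each library shifted to the same median (median centring), 3559 were higher and 2371 lower, and with a trend on transcript length removed from each library (length centring), 2710 were higher and 2636 lower. For Ago2 KO/CLIPΔ against CLIPΔ, the 3 splits were 1446 and 4755, 3401 and 2365, and 2790 and 2738. Fold changes below are on the log2(TPM + 1) scale, as deposited, with the values under both centrings where they bear on the call.

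Dnmt3l, the cofactor of de novo methylation, was at 156 and 202 TPM in WT and at 344, 323, 309 and 304 TPM in Ago2 KO. It was at 89.3 and 134 TPM in CLIPΔ and at 280, 282, 234 and 226 TPM in Ago2 KO/CLIPΔ. Every library without Ago2 lay above every library with it. The log2 fold change was 0.84 ± 0.16 (SE) in Ago2 KO against WT (limma adjusted p = 0.00116), which is 1.10 above the median gene. It was 1.21 ± 0.16 in Ago2 KO/CLIPΔ against CLIPΔ (limma adjusted p = 0.000198). Median centring gave 1.19 and 1.54, and length centring 0.91 and 1.31, all past the threshold.

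The de novo enzymes themselves did not pass as deposited. Dnmt3a was low, at 3.97 and 6.49 TPM in WT, 3.13 and 5.39 TPM in CLIPΔ, 3.65, 3.63, 3.55 and 3.39 TPM in Ago2 KO, and 3.84, 4.10, 4.39 and 4.49 TPM in Ago2 KO/CLIPΔ. The replicates of WT and of CLIPΔ differed from each other by more than the genotypes did. Its log2 fold change was -0.42 in Ago2 KO against WT, with a 95% confidence interval from -0.82 to -0.03 (limma adjusted p = 0.0644), and 0.02 (-0.38 to 0.41) in Ago2 KO/CLIPΔ against CLIPΔ. Without WT replicate 1 the first was -0.72 and passed (limma adjusted p = 0.0157), and without CLIPΔ replicate 1 or 2, which alters only the spread, it passed as well (limma adjusted p = 0.0276 each). Length centring gave 0.29 and 0.60 for Dnmt3a, of which the second passed (limma adjusted p = 0.0385).

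Dnmt3b, the more abundant of the catalytic de novo pair, was at 38.2 and 56.0 TPM in WT, 42.0 and 50.4 TPM in CLIPΔ, 63.3, 64.0, 47.1 and 44.5 TPM in Ago2 KO, and 52.1, 54.6, 42.0 and 42.9 TPM in Ago2 KO/CLIPΔ. In both Ago2 KO groups replicates 1 and 2 lay above replicates 3 and 4, and all 4 genotypes overlapped. On the log2 scale the difference was 0.22 (-0.20 to 0.64) in Ago2 KO against WT and 0.05 (-0.37 to 0.47) in Ago2 KO/CLIPΔ against CLIPΔ. The first passed after median centring at 0.57 (limma adjusted p = 0.0409) and after length centring at 0.58 (limma adjusted p = 0.0391).

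Of the maintenance pair, Uhrf1 did not pass and Dnmt1 passed narrowly in 1 background. Uhrf1 was at 337 and 387 TPM in WT, 357 and 410 TPM in CLIPΔ, 389, 365, 360 and 345 TPM in Ago2 KO, and 417, 448, 353 and 349 TPM in Ago2 KO/CLIPΔ. All genotypes overlapped, and the log2 fold changes were 0.01 (-0.24 to 0.27) and 0.03 (-0.23 to 0.28) for loss of Ago2 in the 2 backgrounds. Both were 0.36 with median centring and 0.31 and 0.32 with length centring, none of which passed. Dnmt1 was at 110 and 140 TPM in WT, 103 and 121 TPM in CLIPΔ, 103, 95.5, 105 and 99.0 TPM in Ago2 KO, and 94.4, 103, 105 and 102 TPM in Ago2 KO/CLIPΔ. The 4 Ago2 KO libraries lay below both WT libraries. Its log2 fold change of -0.30 ± 0.11 passed as deposited (limma adjusted p = 0.0289) but turned to 0.05 with median centring and to 0.20 with length centring, and it was -0.13 without WT replicate 2 (limma adjusted p = 0.323). Without Ago2 KO replicate 2 or 4 it was -0.28 or -0.29 and missed the threshold as well (limma adjusted p = 0.0655 and 0.0577). In Ago2 KO/CLIPΔ against CLIPΔ the log2 fold change of Dnmt1 was -0.14 (-0.37 to 0.09).

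Tet1, the most abundant Tet gene in WT, was at 74.97 and 56.0 TPM in WT and 53.3 and 39.7 TPM in CLIPΔ. It was at 23.2, 23.1, 20.1 and 21.4 TPM in Ago2 KO and at 15.996, 18.0, 28.0 and 26.8 TPM in Ago2 KO/CLIPΔ. No library without Ago2 reached the lowest library with it. For Tet1 the log2 fold change was -1.52 ± 0.22 in Ago2 KO against WT (limma adjusted p = 0.000224), or -1.26 relative to the median gene. It was -1.06 ± 0.22 in Ago2 KO/CLIPΔ against CLIPΔ (limma adjusted p = 0.00193). Length centring, which takes away the most from so long a transcript, left -0.66 (limma adjusted p = 0.00193) and -0.38 (limma adjusted p = 0.0321).

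Tet2, which lacks the CXXC domain found in Tet1 and in long forms of Tet3, was at 50.0 and 42.3 TPM in WT, 39.7 and 28.4 TPM in CLIPΔ, 23.0, 22.2, 22.7 and 23.6 TPM in Ago2 KO, and 14.2, 15.6, 23.7 and 23.1 TPM in Ago2 KO/CLIPΔ. Here too the libraries without Ago2 lay below all those with it. On the log2 scale the difference was -0.98 ± 0.20 (limma adjusted p = 0.00167) and -0.81 ± 0.20 (limma adjusted p = 0.00512) in the 2 backgrounds. Length centring left -0.29 (limma adjusted p = 0.0963) and -0.24 (limma adjusted p = 0.151), and without CLIPΔ replicate 1 the second was -0.58 (limma adjusted p = 0.0854).

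Tet3, the Tet enzyme known from the oocyte and zygote, was the least abundant of the 9 mRNAs. It was at 4.06 and 3.51 TPM in WT, 3.49 and 2.78 TPM in CLIPΔ, 2.30, 2.06, 1.62 and 2.00 TPM in Ago2 KO, and 2.15, 2.14, 2.19 and 1.83 TPM in Ago2 KO/CLIPΔ. The groups with and without Ago2 did not overlap, at levels where 1 TPM of pseudocount weighs on the fold change. The log2 fold change was -0.68 ± 0.12 (limma adjusted p = 0.000876) and -0.42 ± 0.12 (limma adjusted p = 0.0129), but it turned to 0.08 and 0.19 with length centring. The second also missed the threshold without CLIPΔ replicate 1 (log2 fold change -0.30, limma adjusted p = 0.150) and with median centring (-0.09, limma adjusted p = 0.558).

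Tdg was at 13.1 and 14.7 TPM in WT, 8.27 and 11.2 TPM in CLIPΔ, 12.1, 12.9, 11.8 and 12.9 TPM in Ago2 KO, and 9.74, 9.90, 11.7 and 11.6 TPM in Ago2 KO/CLIPΔ. All 4 Ago2 KO libraries were below both WT libraries, by little. On the log2 scale the difference was -0.15 (-0.43 to 0.13) in Ago2 KO against WT and 0.14 (-0.14 to 0.42) in Ago2 KO/CLIPΔ against CLIPΔ, and the second passed at 0.42 with length centring (limma adjusted p = 0.0122). Length centring was not the only scaling to add calls there. With median centring, 2 of the 9 genes were called higher in that comparison, against 1 as deposited, where 3401 of the 11287 genes tested were.

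Summed over the 3 genes, Tet mRNA was at 115 ± 19.3 TPM in WT (SD, n = 2), 83.7 ± 18.1 TPM in CLIPΔ (n = 2), 46.8 ± 1.72 TPM in Ago2 KO (n = 4) and 43.4 ± 10.98 TPM in Ago2 KO/CLIPΔ (n = 4). The sum of Dnmt1, Dnmt3a, Dnmt3b and Dnmt3l was 356 ± 67.5, 274 ± 51.8, 479 ± 27.4 and 408 ± 33.4 TPM in the same order, and most of its difference was Dnmt3l. Tet1 made up 56.5% ± 2.21 of the Tet mRNA in WT and 55.7% ± 0.54 in CLIPΔ, against 46.9% ± 1.69 in Ago2 KO and 50.9% ± 1.19 in Ago2 KO/CLIPΔ. These sums and shares are descriptions without a test, and the trend with transcript length given below was not taken out of them.

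**Figure D2:**
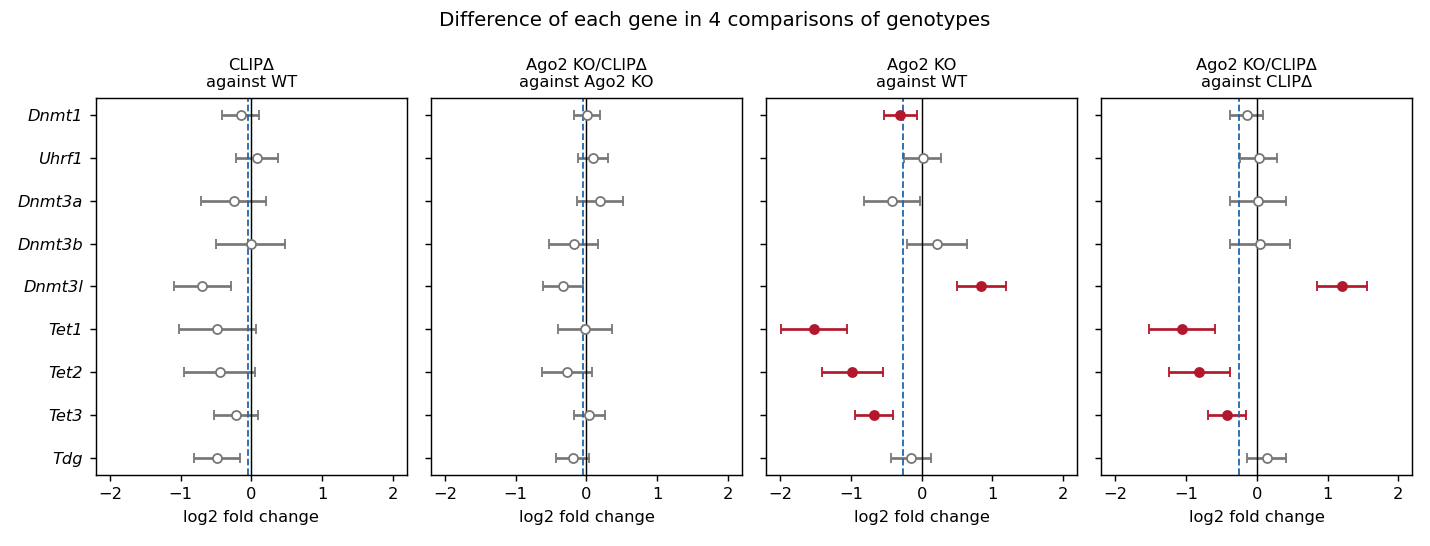
The log2 fold change of each gene (horizontal axis, log2(TPM + 1) scale) in 4 comparisons of genotypes, with 95% confidence intervals from limma. Filled red points passed an adjusted p of 0.05, open grey points did not, and the dashed line is the median of all genes tested. Dnmt3l is to the right and Tet1 to the left in both comparisons of Ago2 loss, and no gene is filled in the 2 comparisons of CLIPΔ. In Ago2 KO against WT Dnmt1 turns positive with median or length centring and Tet3 with length centring, as Tet3 does in Ago2 KO/CLIPΔ against CLIPΔ.

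Transcript length moved with the loss of Ago2 across the whole transcriptome. In Ago2 KO against WT, the median log2 fold change was 0.02 over 3218 genes with a longest transcript under 2 kb, -0.21 over 4556 genes of 2 to 4 kb, -0.46 over 2932 genes of 4 to 8 kb and -0.73 over 506 genes above 8 kb. Of the longest class, 81.6% were called lower. All 3 Tet genes are in that class, with transcripts of 14.4 kb for Tet1, 9.2 kb for Tet2 and 10.9 kb for Tet3, and so is Dnmt3a with 9.7 kb. At their length, Tet1 was among the genes that fell most, since 4.74% of the class had a log2 fold change as low or lower. For Tet2 this share was 26.5%, for Tet3 56.7% and for Dnmt3a 76.5%. Dnmt3l is at the other end, with 1.8 kb, and 92.9% of its class lay at or below its value. Whether the trend with length comes from the cells or from the libraries was not tested, and it was also present between Ago2 KO/CLIPΔ and CLIPΔ, where the 4 class medians ran from -0.04 to -0.60.

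**Figure D3:**
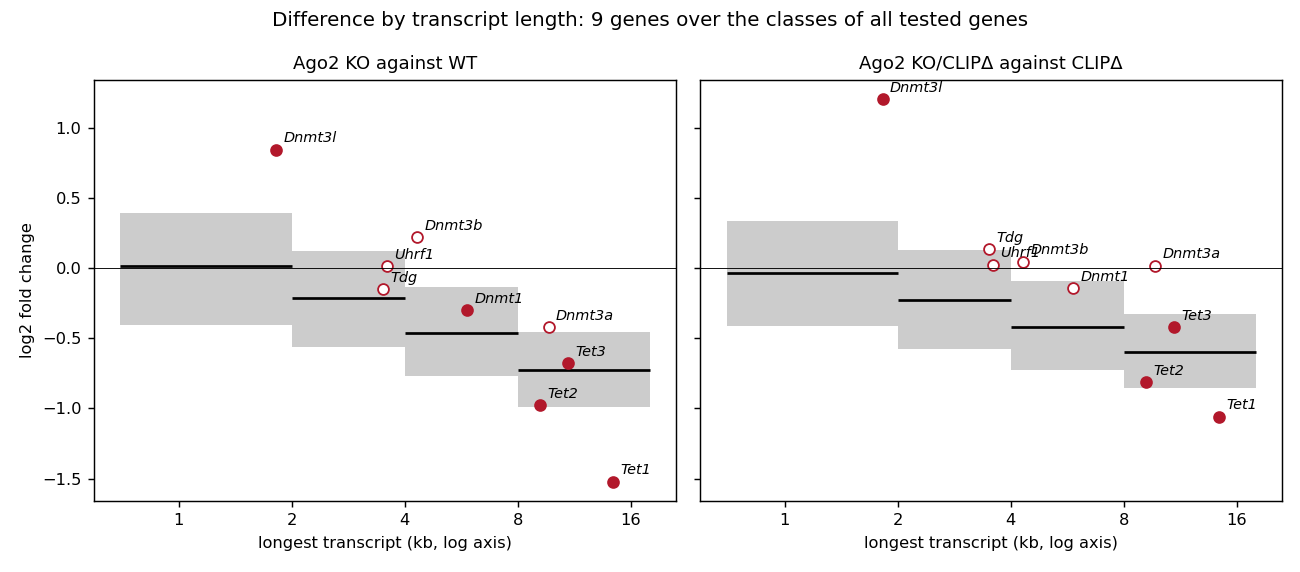
The log2 fold change (vertical axis, log2(TPM + 1) scale) of the 9 genes against the length of their longest transcript (horizontal axis, kb, log scale) in the 2 comparisons of Ago2 loss. Black lines and grey boxes are the median and the middle 50% of all tested genes in 4 length classes, and filled points passed an adjusted p of 0.05. Tet3 lies at the median of its class in Ago2 KO against WT and turns positive with length centring, Dnmt1 turns positive there with either centring, Tet1 lies below the box of its class in both panels and Dnmt3l above.

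The second question was what the deletion of the Trim71 binding stretch in Ago2 goes with, in cells that have Ago2 (CLIPΔ against WT) and in cells that lack it (Ago2 KO/CLIPΔ against Ago2 KO). These comparisons, too, share no library but share the fit, so they are not independent either. None of the 9 genes passed in either (limma, adjusted p of 0.05), against 2.27% (1.46% higher, 0.806% lower) and 0.877% (0.275% higher, 0.602% lower) of all genes tested. At an unadjusted p under 0.05, 2 of the 9 were below WT in CLIPΔ, namely Dnmt3l and Tdg, where 12.9% of all genes tested had such a p. By the same measure 1 was below Ago2 KO in Ago2 KO/CLIPΔ, again Dnmt3l, against 11% of all genes.

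Dnmt3l was lower with the deletion in both backgrounds, without overlap of the groups. With Ago2 present the log2 fold change was -0.69 (-1.10 to -0.29, limma adjusted p = 0.0912), from a mean of 179 to 112 TPM. Without CLIPΔ replicate 2 it was -0.98 and passed (limma adjusted p = 0.0135), and without CLIPΔ replicate 1 it was -0.40 (limma adjusted p = 0.365). In cells lacking Ago2 it was -0.33 (-0.62 to -0.04, limma adjusted p = 0.363), from 320 to 255 TPM. The main fit used no pairing. In alternative fits, the replicate numbers of Ago2 KO and Ago2 KO/CLIPΔ were taken to pair the libraries. The labels do not say this and the values do not single it out. With these numbers as a block in a fit of the 2 groups, chosen after seeing the data, 804 genes passed in place of 99. Dnmt3l passed among them (log2 fold change -0.33, limma adjusted p = 0.0153). In the same fit after length centring, Dnmt3l was at -0.28 (limma adjusted p = 0.0695) and none of the 9 passed. A block by number also called Dnmt3l lower in CLIPΔ against WT, both in a fit of those 2 groups and over all 12 libraries.

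Tdg fell short in the same comparisons, at -0.48 (-0.81 to -0.16, limma adjusted p = 0.139) in CLIPΔ against WT and -0.20 (-0.43 to 0.03, limma adjusted p = 0.538) in Ago2 KO/CLIPΔ against Ago2 KO. The CLIPΔ libraries were below both WT libraries, and without CLIPΔ replicate 2 the log2 fold change was -0.68 (limma adjusted p = 0.0358). Tet1 and Tet2 were at -0.48 (-1.03 to 0.06) and -0.44 (-0.94 to 0.06) in CLIPΔ against WT. Both CLIPΔ libraries lay below both WT libraries for each of these Tet genes. The intervals for Dnmt1 (-0.42 to 0.11), Uhrf1 (-0.21 to 0.38), Dnmt3a (-0.71 to 0.21), Dnmt3b (-0.49 to 0.48) and Tet3 (-0.53 to 0.10) all included 0.

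In the Ago2 KO background, Tet1 and Tet2 differed more within the Ago2 KO/CLIPΔ group than between the genotypes. Replicates 1 and 2 were at 15.996 and 18.0 TPM for Tet1 and at 14.2 and 15.6 TPM for Tet2, whereas replicates 3 and 4 were at 28.0 and 26.8 TPM and at 23.7 and 23.1 TPM. Using only replicates 1 and 2 of both Ago2 KO groups, the log2 fold change of Ago2 KO/CLIPΔ against Ago2 KO was -0.42 for Tet1 and -0.57 for Tet2. Using only replicates 3 and 4 it was 0.38 for Tet1 and 0.02 for Tet2. Over all 4 replicates it was -0.02 (-0.41 to 0.37) for Tet1 and -0.28 (-0.63 to 0.08) for Tet2. The labels give no batch for these pairs of replicates, and this split was made after the values were seen. Tet1 and Tet2 moved together, with r = 0.965 over the 12 libraries and r = 0.959 after the group means were taken out, a description over libraries that share their scaling. Uhrf1 moved against Tet2 within groups, with r = -0.889, but with r = -0.531 over the 12 libraries. Other pairs were of similar size within groups, such as Dnmt1 with Dnmt3a (0.898) and Uhrf1 with Dnmt3l (0.878). Uhrf1 split by the same replicates in Ago2 KO/CLIPΔ, with 417 and 448 TPM in replicates 1 and 2 and 353 and 349 TPM in replicates 3 and 4.

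The interaction, which is the effect of the deletion without Ago2 minus its effect with Ago2, passed for none of the 9 genes (limma, 0 of 9 also at an unadjusted p under 0.05), against 0.647% of all genes tested (0.0975% higher, 0.549% lower). Its intervals were wide, from -0.14 to 0.86 for Dnmt3l and from -0.20 to 1.13 for Tet1, with 2 libraries each in WT and CLIPΔ.

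Genes whose pattern over the 12 libraries was most like that of a member were sought among all genes tested, by Pearson's r on the log2(TPM + 1) scale. For Tet1 these were Aak1 and Ppip5k2 (r = 0.996 each), for Tet2 4930503L19Rik (r = 0.989) and Ssfa2 (0.988), and for Tet3 Soga1 (0.978) and Eef1akmt2 (0.976). Dnmt3l was most like Scamp4 (0.988) and Ppp1r1b (0.983). For Dnmt1 they were Trim41 (0.977) and Myh10 (0.970), for Uhrf1 Nipal3 (0.917) and Eipr1 (0.901), for Dnmt3a Cracr2b (0.953) and Fkbp5 (0.946), for Dnmt3b Kif2c (0.932) and Ntf5 (0.931), and for Tdg Nfkb1 (0.968) and Tmem237 (0.959). These are descriptions over libraries that share their scaling.

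Around the 9 genes, partners of the pathway were followed in 6 lists, which were chosen with earlier results of these data known. Dppa3, also called Stella, was set to be named whatever its values. It is known to hold Uhrf1 away from chromatin and so to protect against methylation. Dppa3 was at 28.3 and 18.8 TPM in WT and at 269 and 117 TPM in CLIPΔ. It was at 2.76, 3.39, 1.28 and 1.61 TPM in Ago2 KO and at 2.22, 2.38, 1.81 and 1.81 TPM in Ago2 KO/CLIPΔ. CLIPΔ lay above WT without overlap, and the groups lacking Ago2 overlapped near the bottom of the scale. For Dppa3 the log2 fold change was 2.89 ± 0.37 in CLIPΔ against WT (limma adjusted p = 0.00176), -2.94 ± 0.32 in Ago2 KO against WT (limma adjusted p = 6.34e-05), and -5.87 ± 0.32 in Ago2 KO/CLIPΔ against CLIPΔ (limma adjusted p = 2.05e-06). In Ago2 KO/CLIPΔ against Ago2 KO it was -0.05 (-0.62 to 0.53), and the interaction was -2.94 ± 0.46 (limma adjusted p = 0.0102). In a fit of WT and CLIPΔ alone, in which no gene passed, the value of 2.89 had a limma adjusted p of 0.435.

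In the list of targeting and protection genes that holds Dppa3, 1 of 14 tested genes was called higher and 9 lower in Ago2 KO against WT, where 14% of all genes were higher and 42.4% lower. The list's median log2 fold change was -0.45, where that of all genes was -0.26. For this list and the next 4, the counts are descriptions to be read against these shares. The 4 largest, Dppa3 among them, included Zfp445 (-1.38) and Nsd1 (-1.13), which act at imprinted regions and on H3K36, and Prdm14 (-0.79), a repressor of Dnmt3b in naive mESCs. Prdm14 was at 49.1 and 22.5 TPM in WT, 47.6 and 34.6 TPM in CLIPΔ, 16.7 to 20.3 TPM in Ago2 KO, and 19.4 to 22.5 TPM in Ago2 KO/CLIPΔ, so that 1 WT library overlapped with Ago2 KO/CLIPΔ. It missed the threshold with median centring (-0.44, limma adjusted p = 0.125), without WT replicate 1 (-0.25, limma adjusted p = 0.262), and with length centring (-0.61, limma adjusted p = 0.0568). With length centring the list split into 5 higher and 4 lower, where 2710 of the 11287 genes tested were higher and 2636 lower. In Ago2 KO/CLIPΔ against CLIPΔ 0 were higher and 6 lower (all genes: 12.8% and 42.1%). Among these were Zfp445 (-1.28), Nsd1 (-0.97) and Prdm14 (-0.88), the last not without CLIPΔ replicate 1 (-0.66, limma adjusted p = 0.103).

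Among maintenance partners, 0 of 10 were higher and 5 lower in Ago2 KO against WT, near the 42.4% of all genes that were lower, with a median of -0.30. Hells, a chromatin remodeller needed for methylation, went from 61.2 ± 2.55 TPM in WT (n = 2) to 27.3 ± 2.36 TPM in Ago2 KO (n = 4), a log2 fold change of -1.14 ± 0.11 (limma adjusted p = 4.02e-05). Uhrf2 (-1.07), the paralogue of Uhrf1, and Usp7 (-0.97), a deubiquitinase that binds Dnmt1, were also lower, and all 3 passed with length centring at -0.64, -0.78 and -0.57. Cdca7, the partner of Hells, was at -0.36 and did not pass with length centring (-0.19, limma adjusted p = 0.106), with median centring (-0.01, limma adjusted p = 0.930) or without WT replicate 1 (limma adjusted p = 0.0674). Between Ago2 KO/CLIPΔ and CLIPΔ, 5 were lower again (all genes: 42.1%), led by Hells (-1.21), Uhrf2 (-1.11), Usp7 (-1.0) and Hdac2 (-0.79).

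Among the readers of methylated CpG, 0 of 7 were higher and 5 lower in Ago2 KO against WT (all genes: 14% and 42.4%), with a median of -0.53. With length centring 2 of them, Mbd1 and Mbd2, were still called lower, as were 2636 of the 11287 genes tested. Mbd1 had the largest difference at -1.25 ± 0.12 (limma adjusted p = 3.90e-05), from 25.7 ± 2.48 to 10.2 ± 0.85 TPM. Zbtb33 (-0.81), Mbd2 (-0.70) and Zbtb38 (-0.51) followed, of which Zbtb38 turned to 0.09 with length centring and missed the threshold with median centring (-0.17, limma adjusted p = 0.280) and without WT replicate 1 (-0.46, limma adjusted p = 0.109). Between Ago2 KO/CLIPΔ and CLIPΔ, 5 of 7 were lower (all genes: 42.1%), with Mbd1 at -1.17, Zbtb33 at -0.96, Mbd2 at -0.86 and Zbtb38 at -0.55. Zbtb38 was not called without CLIPΔ replicate 1 (-0.32, limma adjusted p = 0.204).

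The list of base excision repair, which completes active demethylation, also held Gadd45 genes and Apobec deaminase genes. It had 1 of 15 tested genes higher and 6 lower in Ago2 KO against WT, near the 14% and 42.4% of all genes. Its median of -0.25 was like theirs. The largest differences were those of the stress-induced genes Gadd45a (-1.59) and Gadd45g (-1.49), the repair polymerase gene Polb (-1.27) and the cytidine deaminase gene Apobec1 (-0.77). Gadd45a went from 46.9 ± 17.3 TPM in WT to 14.4 ± 0.82 TPM in Ago2 KO. With length centring 4 were lower (all genes: 2636 of 11287), and those 4 were at -1.59, -1.49, -1.27 and -0.63. Between Ago2 KO/CLIPΔ and CLIPΔ, 1 was higher and 5 lower (all genes: 12.8% and 42.1%), with Gadd45g at -2.64, Gadd45a at -1.56, Polb at -1.22 and Apobec1 at -0.91.

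Of the enzymes that supply the methyl donor or the Tet cofactor, 3 of 11 were higher and 1 lower in Ago2 KO against WT, where 14% and 42.4% of all genes were, with a median of -0.19. Idh2, a mitochondrial source of the Tet cofactor alpha-ketoglutarate, rose by 0.58 ± 0.13 (limma adjusted p = 0.00247), from 71.2 ± 9.12 to 106 ± 10.1 TPM. Ahcy (0.47), which clears the product that inhibits methyltransferases, and Shmt2 (0.31), of mitochondrial one-carbon metabolism, also rose. Ahcy missed the threshold without WT replicate 1 (0.27, limma adjusted p = 0.220), and Shmt2 without WT replicate 1 or 2 or Ago2 KO replicate 3 or 4 (limma adjusted p = 0.116, 0.112, 0.0917 and 0.0828). Mat2b, a subunit of the enzyme that makes the methyl donor, was at -0.33 as deposited and turned to 0.02 with median centring, and without WT replicate 1 it was -0.22 (limma adjusted p = 0.179). Between Ago2 KO/CLIPΔ and CLIPΔ, 2 were higher and 4 lower (all genes: 12.8% and 42.1%), among them Mat2a (-0.85), Mtrr (-0.74), Shmt2 (0.59) and Mat2b (-0.49). The call of Mat2a was lost without CLIPΔ replicate 1 (-0.35, limma adjusted p = 0.485) or without any 1 of the 8 libraries that lack Ago2.

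Of 15 genes listed as germline genes silenced by DNA methylation and found among those measured, 4 were expressed enough to be tested and 11 were not. Dazl and Sycp3 passed the minimum through the libraries that have Ago2, so their direction was fixed by the filter and the count is a description. In Ago2 KO against WT 2 of the 4 were lower, Dazl (-2.01) and Sycp3 (-1.21), and none was higher. Of all genes tested, 42.4% were lower and 14% higher. Dazl was at 9.14 and 3.15 TPM in WT, 11.3 and 4.50 TPM in CLIPΔ, 0.53 to 0.69 TPM in Ago2 KO and 0.70 to 1.55 TPM in Ago2 KO/CLIPΔ. Between Ago2 KO/CLIPΔ and CLIPΔ, Dazl was at -2.04, Sycp3 at -1.04 and the testis tubulin gene Tuba3a at -0.53. Tuba3a was not silent in any library. It was at 46.0 and 54.5 TPM in WT and at 98.0 and 99.6 TPM in CLIPΔ. In Ago2 KO it was at 36.5 to 51.1 TPM and in Ago2 KO/CLIPΔ at 63.0 to 72.5 TPM. Tuba3a was the gene of this list called for the deletion, at 0.97 ± 0.16 in CLIPΔ against WT (limma adjusted p = 0.0105) and 0.65 ± 0.12 in Ago2 KO/CLIPΔ against Ago2 KO (limma adjusted p = 0.0234), and its second call was lost without Ago2 KO replicate 1 or 2 or any 1 Ago2 KO/CLIPΔ library. Its first call was lost without WT replicate 2 or CLIPΔ replicate 1 (limma adjusted p = 0.0524 and 0.0601). Apart from Dppa3 and Tuba3a, no gene of the 6 lists passed in CLIPΔ against WT.

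**Figure D4:**
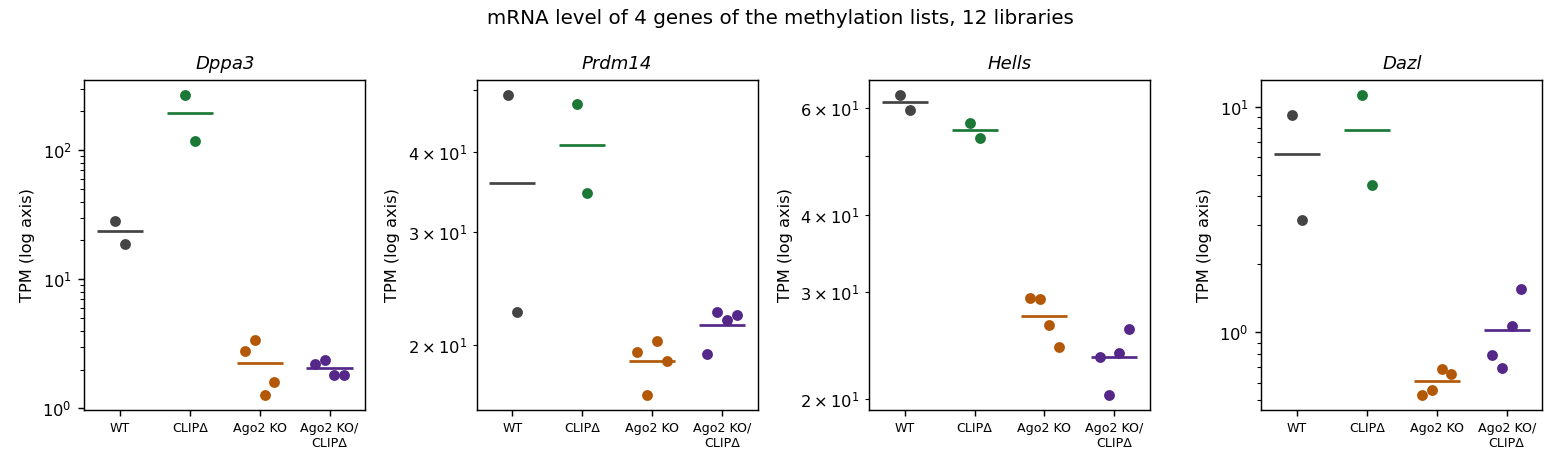
Level in TPM (vertical axis, log scale) of Dppa3, Prdm14, Hells and Dazl in the 4 genotypes. Each point is 1 library and each bar a mean. Dppa3 is above WT in both CLIPΔ libraries and at most 3.39 TPM in all 8 libraries without Ago2, and Hells separates the libraries with and without Ago2 (53.6 to 63.0 TPM against 20.3 to 29.3 TPM).

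Several of these mRNAs are widely described as targets of miRNAs of the miR-29, miR-148 and miR-26 families, which Argonaute proteins load. A miRNA finds its targets mainly through its seed, bases 2 to 8. Of the 7 miRNAs of these families abundant enough to test, the 5 whose seed sites were searched are shown, from RefSeq on GRCm38.p6, to place their seeds beside the sites below, with the seed in capitals.
miR-29a-3p: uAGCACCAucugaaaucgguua
miR-148a-3p: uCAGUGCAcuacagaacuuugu
miR-148b-3p: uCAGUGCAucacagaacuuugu
miR-152-3p: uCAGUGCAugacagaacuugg
miR-26b-5p: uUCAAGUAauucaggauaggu
miR-148a-3p, miR-148b-3p and miR-152-3p share their seed, and the other seeds differ from it and from each other.

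A site of 8 bases that pairs with the seed and ends in A was searched on the sense strand of the 3′UTR of the longest coding transcript of each gene (GENCODE M21, mm10). The site of miR-29 is TGGTGCTA, that of miR-148 TGCACTGA and that of miR-26 TACTTGAA, and none of these strings contains another. A miR-29 site was found in 5 of the 9 genes, Dnmt3a, Tet1, Tet2, Tet3 and Tdg, and in 2.93% of 10816 3′UTRs of tested genes. Among the 1485 of these 3′UTRs of at least 3000 bases, 8.82% held one. The 3′UTRs of the 5 genes are long, with 6696 bases in Dnmt3a, 7955 in Tet1, 3058 in Tet2, 5669 in Tet3 and 2079 in Tdg, where the median of all was 1040 bases. A miR-26 site was found in Dnmt3a, Tet1, Tet2 and Tet3, against 4.49% of all 3′UTRs and 13.9% of those of at least 3000 bases. A miR-148 site was found in Dnmt1 and Uhrf1, against 3.95% of all. Dnmt3b and Dnmt3l held none of these sites in 3′UTRs of 1331 and 273 bases. For let-7 (site CTACCTCA, in 3.53% of all) 1 gene, Tet3, held a site, and for the miR-290 family seed (site AGCACTTA, in 3.26%) none did. A match describes letters in the reference and is not evidence that the site is used.

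One site per gene is shown in a window of 30 bases on the strand of the mRNA, with the site in capitals.
Dnmt1, miR-148, chr9:20907480-20907509, minus strand: agagccccacgTGCACTGAtgtttttaacc
Uhrf1, miR-148, chr17:56323104-56323133, plus strand: ttttcagagagTGCACTGActgggtgtcat
Dnmt3a, miR-29, chr12:3911394-3911423, plus strand: ggggaggtagcTGGTGCTAgcaccagggtc
Tet1, miR-29, chr10:62806031-62806060, minus strand: cttgaaggagaTGGTGCTAgctgaacaatt
Tet2, miR-29, chr3:133466162-133466191, minus strand: ttaacattaaaTGGTGCTAcaaatggtgtt
Tet3, miR-29, chr6:83364325-83364354, minus strand: agtctaataaaTGGTGCTAtggtgtttcaa
Tdg, miR-29, chr10:82649666-82649695, plus strand: tgcattttccaTGGTGCTAcagacagcctg
Dnmt3a, Tet2 and Tet3 hold 2 miR-29 sites each, of which the first is shown, and Tet1 and Tdg hold 1.

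The miRNAs of these families differed between genotypes, as did many others. Of the 7 of them with a mean of at least 100 TPM over the 16 small-RNA-seq libraries, 3 passed in CLIPΔ against WT, where 46.6% of the 249 miRNAs tested did (27.7% higher, 18.9% lower), and 6 passed in Ago2 KO against WT, where 81.9% did (47.4% higher, 34.5% lower). All 7 passed in Ago2 KO/CLIPΔ against CLIPΔ, against 83.1% (47.8% higher, 35.3% lower). None passed in Ago2 KO/CLIPΔ against Ago2 KO (limma, 0 of 7 also at an unadjusted p under 0.05), against 22.1% (19.3% higher, 2.81% lower), and 1 passed in the interaction, against 49.4% (22.9% higher, 26.5% lower). With such backgrounds the counts are not a result about these families. In an alternative fit, the letters of the WT and CLIPΔ columns were taken to pair the libraries (r of 0.32 to 0.73). With the letter as a block in a fit of the 2 groups, 4 of the families' 8 miRNAs tested passed. The added call was miR-148b-3p, with a log2 fold change of 0.33 (limma adjusted p = 0.0412 with the block and 0.258 without).

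miR-29a-3p was at 167, 233, 158 and 123 TPM in WT and at 341, 581, 513 and 287 TPM in CLIPΔ. It was at 299.5, 302.5, 322 and 362 TPM in Ago2 KO and at 241, 229.6, 244 and 236 TPM in Ago2 KO/CLIPΔ. CLIPΔ lay above WT and Ago2 KO/CLIPΔ below Ago2 KO, in each case without overlap. The log2 fold change of miR-29a-3p was 1.31 ± 0.21 in CLIPΔ against WT (limma adjusted p = 7.56e-05), 0.95 ± 0.21 in Ago2 KO against WT (limma adjusted p = 0.000508), and -0.80 ± 0.21 in Ago2 KO/CLIPΔ against CLIPΔ (limma adjusted p = 0.00211). It was -0.43 ± 0.21 in Ago2 KO/CLIPΔ against Ago2 KO (limma adjusted p = 0.175) and passed there with the replicate number as a block (limma adjusted p = 0.00189). The interaction was -1.74 ± 0.30 (limma adjusted p = 0.000124). Over the same comparison of CLIPΔ against WT, the log2 fold changes of the 5 mRNAs with a miR-29 site were -0.25 (Dnmt3a), -0.48 (Tet1), -0.44 (Tet2), -0.21 (Tet3) and -0.48 (Tdg), and those of the 4 without were -0.15 (Dnmt1), 0.08 (Uhrf1), -0.01 (Dnmt3b) and -0.69 (Dnmt3l). Length moved with this comparison too, with class medians from 0.00057 for the shortest to -0.18 for the longest transcripts. With length centring the 5 with a site were at -0.10 (Dnmt3a), -0.30 (Tet1), -0.30 (Tet2), -0.05 (Tet3) and -0.43 (Tdg), and the 4 without were at -0.05 (Dnmt1), 0.14 (Uhrf1), 0.06 (Dnmt3b) and -0.68 (Dnmt3l). None of the 9 passed either way, and the part of miR-29a-3p in them was not tested.

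miR-148a-3p, whose family has a site in Dnmt1 and Uhrf1, had the largest log2 fold change of the 7. It was between 4802 and 13854 TPM in WT and between 5019 and 13599 TPM in CLIPΔ, against 59392 to 88354 TPM in Ago2 KO and 71783 to 84802 TPM in Ago2 KO/CLIPΔ. miR-148a-3p had a log2 fold change of 3.03 ± 0.30 in Ago2 KO against WT (limma adjusted p = 5.71e-08) and 3.04 ± 0.30 in Ago2 KO/CLIPΔ against CLIPΔ (limma adjusted p = 4.59e-08). Its passenger strand miR-148a-5p was higher by 1.69 and 1.80 on the log2 scale. Of the relatives with the same seed, miR-148b-3p was at -0.55 ± 0.23 (limma adjusted p = 0.0342) and -1.09 ± 0.23 (limma adjusted p = 0.000260), and miR-152-3p at 0.01 ± 0.43 and -1.37 ± 0.43 (limma adjusted p = 0.00666). The first call of miR-148b-3p was lost without WT replicate A, B or C (limma adjusted p = 0.118, 0.0975 and 0.0681) or without Ago2 KO replicate 3 or 4 (limma adjusted p = 0.0701 and 0.0665). In the same comparisons the log2 fold changes were 0.01 and 0.03 for Uhrf1 mRNA and -0.30 and -0.14 for Dnmt1 mRNA. The -0.30 passed as deposited (limma adjusted p = 0.0289) and turned positive with either centring.

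miR-26b-5p was between 11931 and 16927 TPM in WT, between 12301 and 17745 TPM in CLIPΔ, between 8240 and 9685 TPM in Ago2 KO, and between 6905 and 7988 TPM in Ago2 KO/CLIPΔ. miR-26b-5p had a log2 fold change of -0.75 ± 0.13 in Ago2 KO against WT (limma adjusted p = 5.47e-05) and -1.06 ± 0.13 in Ago2 KO/CLIPΔ against CLIPΔ (limma adjusted p = 8.33e-07), while miR-26a-2-3p was higher by 1.38 and 1.72. In CLIPΔ against WT, miR-152-3p was at 1.18 ± 0.43 (limma adjusted p = 0.0330), a call lost without WT replicate A, C or D or without CLIPΔ replicate B or C, and miR-26a-2-3p at -0.45 ± 0.18 (limma adjusted p = 0.0443), a call lost without any 1 of 12 of the 16 libraries.

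**Figure D5:**
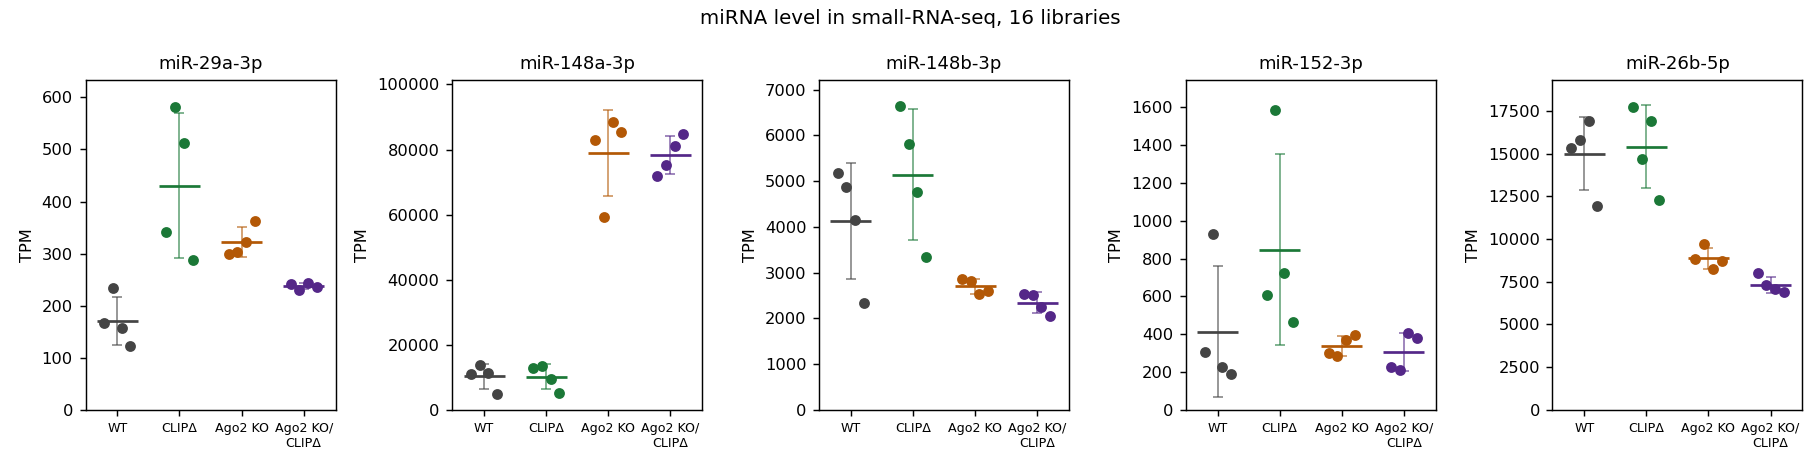
Level in TPM (vertical axis, from 0) of 5 miRNAs in the 4 genotypes, 4 small-RNA-seq libraries each. Each point is 1 library, the long bar is the mean and the thin bar 1 SD. miR-148a-3p is at least 59392 TPM in the 8 libraries without Ago2 and at most 13854 TPM in the other 8, and miR-29a-3p is highest in CLIPΔ (287 to 581 TPM).

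Trim71 itself was found on 2 of the 9 mRNAs, Tet1 and Tet2. This count is a description, since no share over all genes was taken to read it against. Both have long transcripts, of 14.4 and 9.2 kb, which offer more room for a peak. The deposited list holds 498 peaks common to both immunoprecipitated replicates, in 439 genes, with 1 read number per peak and no value per replicate. In Tet1 there were 2 peaks in the 3′UTR, with 3227 reads (rank 146 of the 498 by reads) at chr10:62810426-62810437 and 589 reads (rank 455) at chr10:62807213-62807214, at 2095 and 5318 bases into the 3′UTR. In Tet2 there was 1 peak in the coding sequence, with 2816 reads (rank 184) at chr3:133473652-133473656. The reads of a peak depend on the abundance of the mRNA, and Tet1 and Tet2 are at 65.5 and 46.2 TPM in WT. The sequences under these peaks (mm10, minus strand, 30 bases, with the listed peak in capitals) are shown since they are where Trim71 was placed.
Tet1, chr10:62810417-62810446: tcagttgaaTACACCAATGTTgatgaatgg
Tet1, chr10:62807199-62807228: tactgcagaaaggaCCaaggatgtgtatgc
Tet2, chr3:133473640-133473669: ctcatttgcaaaaCCTGGctactgtcattg
The files do not say whether peak starts are counted from 0 or 1, so the capitals may be off by 1 base. Neither Tet mRNA passed in CLIPΔ against WT, a comparison that removes a Trim71 site in Ago2 and none in Tet1 or Tet2. The study reports less Trim71 protein in CLIPΔ than in WT, so the amount of Trim71 differs in this comparison too. No library of the series lacks Trim71, and its part in the level of Tet1 or Tet2 was not tested.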

How the data were processed

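Per the labels and the study's methods, reads were mapped to mm10 with HISAT2 (v2.1.0), counted on the longest transcript of each gene and converted by the authors to TPM. The deposited RNA-seq (12 libraries, 15034 genes) and small-RNA-seq (16 libraries, 507 miRNAs) tables hold these TPM values, so the sequencing depth is unknown and no counting interval is given. The deposited CLIP-seq list gives pooled read counts per peak.

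Values were analysed as log2(TPM + 1) with limma 3.58.1 in R 4.3.3, over all libraries of a table, 1 mean per genotype, two-sided, Benjamini-Hochberg over the genes whose mean reached 1 TPM (miRNAs: 100 TPM). The count test of the study's methods was not used, since TPM are not counts. The fits were tested on simulated data. In both tables the columns are named for WT, Ago2, d3 and Ago2_d3. The labels do not explain d3, and it was read as CLIPΔ, the 1 edit left once WT and Ago2 were matched. Transcript lengths, 3′UTRs and coordinates came from GENCODE M21 and the GRCm38 genome, and 99.3% of tested genes had a length.

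The main fits used no pairing of libraries. In alternative fits, replicate numbers of Ago2 KO and Ago2 KO/CLIPΔ were taken to pair them. Deviations from the group means correlated at 0.32 to 0.43 in all 4 RNA-seq pairs and at 0.17 to 0.39 in the small-RNA pairs. Libraries with different numbers correlated as highly within replicates 1 and 2 (0.33 to 0.39 in RNA-seq) and within 3 and 4 (0.35 to 0.47), so the values separate 1 and 2 from 3 and 4 and do not single out the same number. Small-RNA columns of WT and CLIPΔ with the same letter correlated at 0.32 to 0.73.

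Named were the 9 genes, Ago2, Pou5f1, Nanog, Prdm14, Dppa3, up to 4 called genes a list and comparison by size, the 2 genes most like each member, and the miRNAs of 3 families. The 9 genes were set by name, without use of their values. The lists, the other named genes and the rules were chosen with earlier results of these data known. The result of 1 listed gene is not reported here, and that gene stayed in the fit. Replicates are those of the labels, and p-values measure the spread between them, which may be technical.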

Additional observations from a re-analysis of the deposited data

Results flagged for a closer look

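Dppa3 responded to the deletion in Ago2 differently with and without Ago2, with an interaction of -2.94 on the log2 scale (limma adjusted p = 0.0102). With only replicates 1 and 2, or only replicates 3 and 4, of the Ago2 KO groups the interaction was -3.19 or -2.69 and did not pass (limma adjusted p = 0.173 and 0.172).

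miR-29a-3p did so as well, with an interaction of -1.74 (limma adjusted p = 0.000124).

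Of 76 groups of 4 RNA-seq libraries checked for a single library far from the other 3, 2 were found, and of 28 small-RNA-seq groups, 1, where chance flags about 1 in 20. Tet3 was at 1.83 TPM in Ago2 KO/CLIPΔ replicate 4, below 2.14 to 2.19 TPM in the other 3. Pou5f1 was at 3180 TPM in Ago2 KO/CLIPΔ replicate 4, above the other 3. miR-152-3p was at 928 TPM in WT replicate B, against 190 to 306 TPM in the other 3 WT libraries.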

How the results depend on the processing

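Of the log2 fold changes of named genes and miRNAs that passed, 1548 of the values under the alternatives kept direction and call, 128 kept direction but missed the threshold and 6 changed sign. With median centring, Ago2 KO against WT turned to 0.046 for Dnmt1 and 0.018 for Mat2b. With length centring, chosen after seeing the data, it turned to 0.20 for Dnmt1, 0.080 for Tet3 and 0.087 for Zbtb38, Ago2 KO/CLIPΔ against CLIPΔ turned to 0.19 for Tet3, and 3 of the 9 genes passed in Ago2 KO against WT. Of values that did not pass, 112 changed sign without passing.

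Counts of all genes called moved as follows. Without the filter on low values, 510 passed in CLIPΔ against WT and 168 in the interaction. In fits of only the 2 groups compared, 0 passed in CLIPΔ against WT and 353 in Ago2 KO/CLIPΔ against Ago2 KO. With only replicates 1 and 2 of the Ago2 KO groups, chosen after seeing the data, 101 passed in CLIPΔ against WT and 0 in Ago2 KO/CLIPΔ against Ago2 KO and in the interaction. With only replicates 3 and 4, 120 passed in CLIPΔ against WT, 0 in Ago2 KO/CLIPΔ against Ago2 KO, 4065 in Ago2 KO/CLIPΔ against CLIPΔ and 12 in the interaction, and 2 of the 9 genes passed in Ago2 KO/CLIPΔ against CLIPΔ.

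With the replicate block over all 12 libraries, 180 passed in Ago2 KO/CLIPΔ against Ago2 KO, and 1 of the 9 genes, Dnmt3l, in CLIPΔ against WT. With the block in a fit of the 2 groups, chosen after seeing the data, 804 passed in Ago2 KO/CLIPΔ against Ago2 KO (812 with length centring as well), and Dnmt3l was the 1 of the 9 genes that passed there and in CLIPΔ against WT (limma adjusted p = 0.0382), whose numbers form 2 pairs only (r = 0.71) and share a number without shown pairing. The block added Dnmt3a and Dnmt3b to the calls in Ago2 KO against WT. For the 3 miRNA families, the block gave 3 calls in Ago2 KO/CLIPΔ against Ago2 KO and 4 in CLIPΔ against WT, median centring 2, and either pair of Ago2 KO replicates left 1 in CLIPΔ against WT.

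Leaving out 1 library at a time, all genes called ranged from 101 to 390 in CLIPΔ against WT, 4150 to 6631 in Ago2 KO against WT, 21 to 161 in Ago2 KO/CLIPΔ against Ago2 KO, 3648 to 6609 in Ago2 KO/CLIPΔ against CLIPΔ and 48 to 137 in the interaction. Calls among the 9 genes ranged from 0 to 2 in CLIPΔ against WT and from 2 to 4 in Ago2 KO/CLIPΔ against CLIPΔ. Calls among the miRNA families ranged from 1 to 3 in CLIPΔ against WT and from 1 to 3 in the interaction. The causes were not tested. The 3 peaks stayed with a minimum of 100 reads. Depth is unknown, and groups of 2 set the precision of every comparison with WT or CLIPΔ.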
